A study of Mus musculus with 4 samples.

Results

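The genes described here carry dopamine signalling in striatum: the receptors Drd1, Drd2 and Adora2a, the G protein subunits Gnal and Gng7, the regulator Rgs9, the cyclic AMP enzymes Adcy5 and Pde10a, and the phosphatase inhibitor Ppp1r1b. They were chosen by symbol for their known role and make up 9 of the 19465 features measured. Visium-FFPE sections were taken from the brains of male wild-type C57BL/6J offspring at postnatal day 21. Their mothers had been fed folic acid (FA) at 2 mg/kg (MF, 2 sections) or 20 mg/kg (HF, 2 sections) from 2 weeks before mating until the end of lactation. At the start the mothers were aged 8 weeks by the study's results, whereas its methods give a range of ages from 8 weeks upward. The study describes the 2 sections of a diet as biological replicates, and each is 1 replicate here. Nothing in the sources used here says whether they came from separate litters, so p-values measure the spread between these sections. In Visium-FFPE, pairs of probes bind the RNA of a fixed section and are counted as unique molecular identifiers (UMIs) in spots that each cover several cells. The MF sections held 90098381 UMIs (replicate 1) and 42423648 UMIs (replicate 2), and the HF sections 34983708 and 42507273. The comparison asks whether a high maternal FA intake alters these genes in the offspring striatum.

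Striatum is the main input nucleus of the basal ganglia, and most of its neurons are GABAergic spiny projection neurons. Those of the direct pathway carry the dopamine D1 receptor, which raises cyclic AMP through Gnal and Adcy5, whereas those of the indirect pathway carry the D2 receptor, which lowers it, together with an adenosine receptor, encoded by Adora2a, which raises it. Pde10a breaks cyclic nucleotides down, Rgs9 shortens the signal of inhibitory G proteins, and Ppp1r1b (DARPP-32) inhibits protein phosphatase 1 once protein kinase A has phosphorylated it.

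Drd1 (ENSMUSG00000021478) lies at chr13:54051183-54055705 of GRCm38, Drd2 (ENSMUSG00000032259) at chr9:49340627-49408177 and Adora2a (ENSMUSG00000020178) at chr10:75316877-75334784. Gng7 (ENSMUSG00000048240) lies at chr10:80948624-81014945, Rgs9 (ENSMUSG00000020599) at chr11:109225355-109298129 and Adcy5 (ENSMUSG00000022840) at chr16:35154877-35305738. Pde10a (ENSMUSG00000023868) spans chr17:8525372-8986648 and Ppp1r1b (ENSMUSG00000061718) chr11:98348404-98357796, and Gnal is ENSMUSG00000024524. Promoter windows of 300 bases, from 250 before to 50 after a RefSeq start site (GRCm38.p6), were matched for 6 of the 9 genes. They are shown for the receptor of each pathway and for Rgs9 and Pde10a. Of the 9, Rgs9 and Pde10a had the smallest adjusted p-values between the dorsal and ventral parts of the striatal spots. Capitals mark GGGCGG or its reverse complement CCGCCC, the letters of a GC box:
Drd1 (chr13:54055609-54055908, minus strand): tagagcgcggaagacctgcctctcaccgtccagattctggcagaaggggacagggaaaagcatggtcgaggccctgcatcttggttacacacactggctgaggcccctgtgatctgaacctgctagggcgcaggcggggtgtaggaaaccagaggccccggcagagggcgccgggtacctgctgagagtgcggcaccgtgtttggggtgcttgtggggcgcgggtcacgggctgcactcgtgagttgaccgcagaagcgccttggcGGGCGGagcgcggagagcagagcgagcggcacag
Drd2 (chr9:49340153-49340452, plus strand): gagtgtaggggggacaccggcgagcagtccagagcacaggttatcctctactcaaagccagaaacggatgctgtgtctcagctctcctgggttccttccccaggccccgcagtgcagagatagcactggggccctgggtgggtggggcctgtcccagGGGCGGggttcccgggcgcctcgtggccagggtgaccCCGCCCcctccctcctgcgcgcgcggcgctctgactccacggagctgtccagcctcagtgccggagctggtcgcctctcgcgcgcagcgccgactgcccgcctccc
Rgs9 (chr11:109298132-109298431, minus strand): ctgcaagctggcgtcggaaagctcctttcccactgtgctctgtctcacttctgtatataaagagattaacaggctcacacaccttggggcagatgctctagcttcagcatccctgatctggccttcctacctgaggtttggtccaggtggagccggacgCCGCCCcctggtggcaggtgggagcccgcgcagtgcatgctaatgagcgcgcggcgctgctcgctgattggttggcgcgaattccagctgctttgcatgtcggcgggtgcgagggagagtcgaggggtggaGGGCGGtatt
Pde10a (chr17:8801495-8801794, plus strand): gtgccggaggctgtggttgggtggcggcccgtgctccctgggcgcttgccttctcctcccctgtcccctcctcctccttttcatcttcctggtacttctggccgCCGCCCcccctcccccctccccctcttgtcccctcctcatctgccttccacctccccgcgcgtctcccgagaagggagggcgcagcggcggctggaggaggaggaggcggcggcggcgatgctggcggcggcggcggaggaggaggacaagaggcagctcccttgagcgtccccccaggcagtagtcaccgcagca

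On either strand, these letters occurred in 8 of the 9 windows of the 6 genes and in 35.7% of all 32851 windows of that length. The cyclic AMP response element in its full form, TGACGTCA, was found in none of the 9, against 1.79% of all windows. Its shorter form TGACG, which the full form contains, was found in 1 window of Gng7, against 20.8% of all windows. TATAAA was found in Rgs9 alone, against 13.6%. A match describes the letters in a window and not a site in use.

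Clustering of 13452 spots, with the 9 genes and the related pathway genes left out, gave 23 clusters, of which 1 was striatal. It held 576 spots, and 13 of 18 striatal marker genes were among its 50 leading genes, Sh3rf2, Scn4b and Meis2 included. In each section these spots formed 1 narrow band, with a few spots apart from it. MF replicate 1 contributed 147 spots, MF replicate 2 117, HF replicate 1 115 and HF replicate 2 197, where the band reached further toward the base of the brain. The coronal level of that section may differ from the others, and level and animal cannot be told apart in the comparisons between diets. The summed striatal UMIs were 3217561, 1221288, 760095 and 2057912 in the same order, so HF replicate 1 is the least precisely measured.

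**Figure D1:**
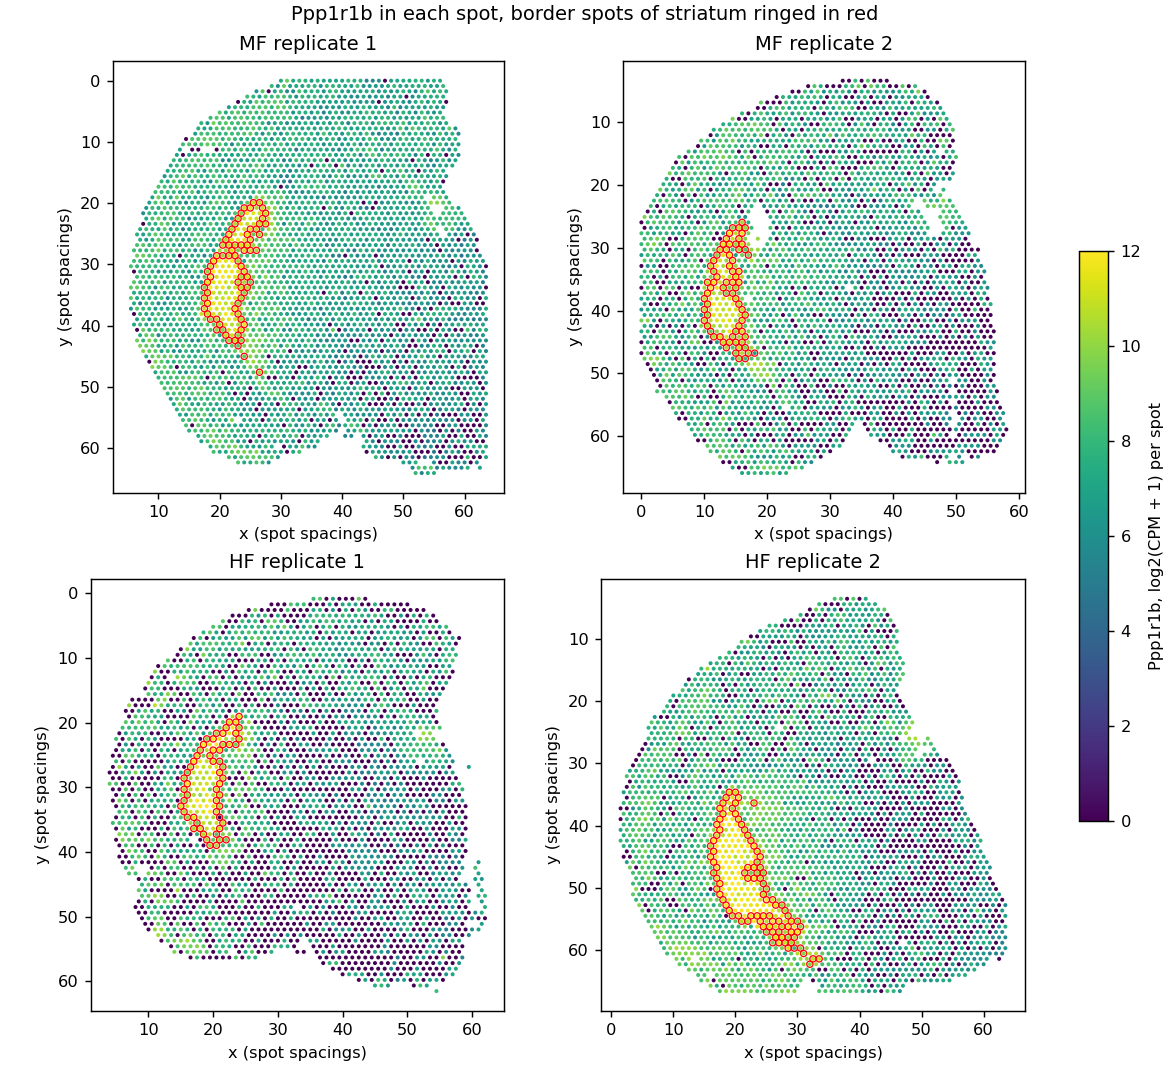
Position of every kept spot (x and y in spot spacings) in the 4 sections, coloured by the Ppp1r1b level as log2(CPM + 1), with the border spots of the striatal cluster ringed in red. The brightest spots lie mostly inside the band of 147, 117, 115 and 197 striatal spots. Ppp1r1b was not used to define it, but genes with a like pattern, Sh3rf2 among them, were not left out.

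All 9 genes were highest in the striatal cluster among the 23 clusters by mean level. Levels are UMIs of a gene per 1000000 UMIs of the region (CPM), and since probes differ between genes they are compared between regions and not between genes. Because the genes were chosen as striatal, this is a description without a test. Ppp1r1b reached 2333 ± 416 CPM in striatum (SD, n = 4 sections). Its level in cortex was 209 and 206 CPM for MF and 151 and 224 CPM for HF. Cortex was thus far lower than striatum in every section.

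The next highest area differed from gene to gene. For Ppp1r1b it was choroid plexus and ventricle wall at 904 ± 83.7 CPM, so that striatum was 2.58 times higher. That cluster, of 47 spots led by Ttr, is not neuronal, and the cluster after it was 8.05 times below striatum. For Gnal, the G protein subunit that stands in for the ordinary stimulatory subunit in striatum and the olfactory system, a thalamic cluster led by Tnnt1 and Prkcd followed at 289 ± 18.7 CPM (1.82-fold), and of the 9 genes it had the smallest lead. Gng7, which codes for a gamma subunit that partners it, came next in a CA1 cluster of hippocampus at 81.9 ± 8.61 CPM (3.02-fold). Pde10a was also next highest in CA1, in its other cluster, at 101 ± 6.08 CPM (6.67-fold).

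Hypothalamus came second for 3 of the genes. Rgs9 had 105 ± 15.9 CPM in the hypothalamic cluster led by Dlk1 and Irs4 (4.97-fold). Adcy5 had 68.3 ± 4.16 CPM and Drd2 19.3 ± 10.4 CPM in the hypothalamic cluster led by Ccdc42, 3.63 and 6.79 times below striatum. Drd1 was next highest in layer 6 of cortex at 3.999 ± 1.26 CPM (4.95-fold), which is 65 UMIs over the 4 sections. Adora2a, the adenosine receptor gene, fell off most, with 17.7 ± 3.78 CPM in white matter (11.4-fold). Among the spots next to striatal ones, 42 and 44 in MF and 29 and 31 in HF were white matter. The part of this border in the white matter value was not tested.

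**Figure D2:**
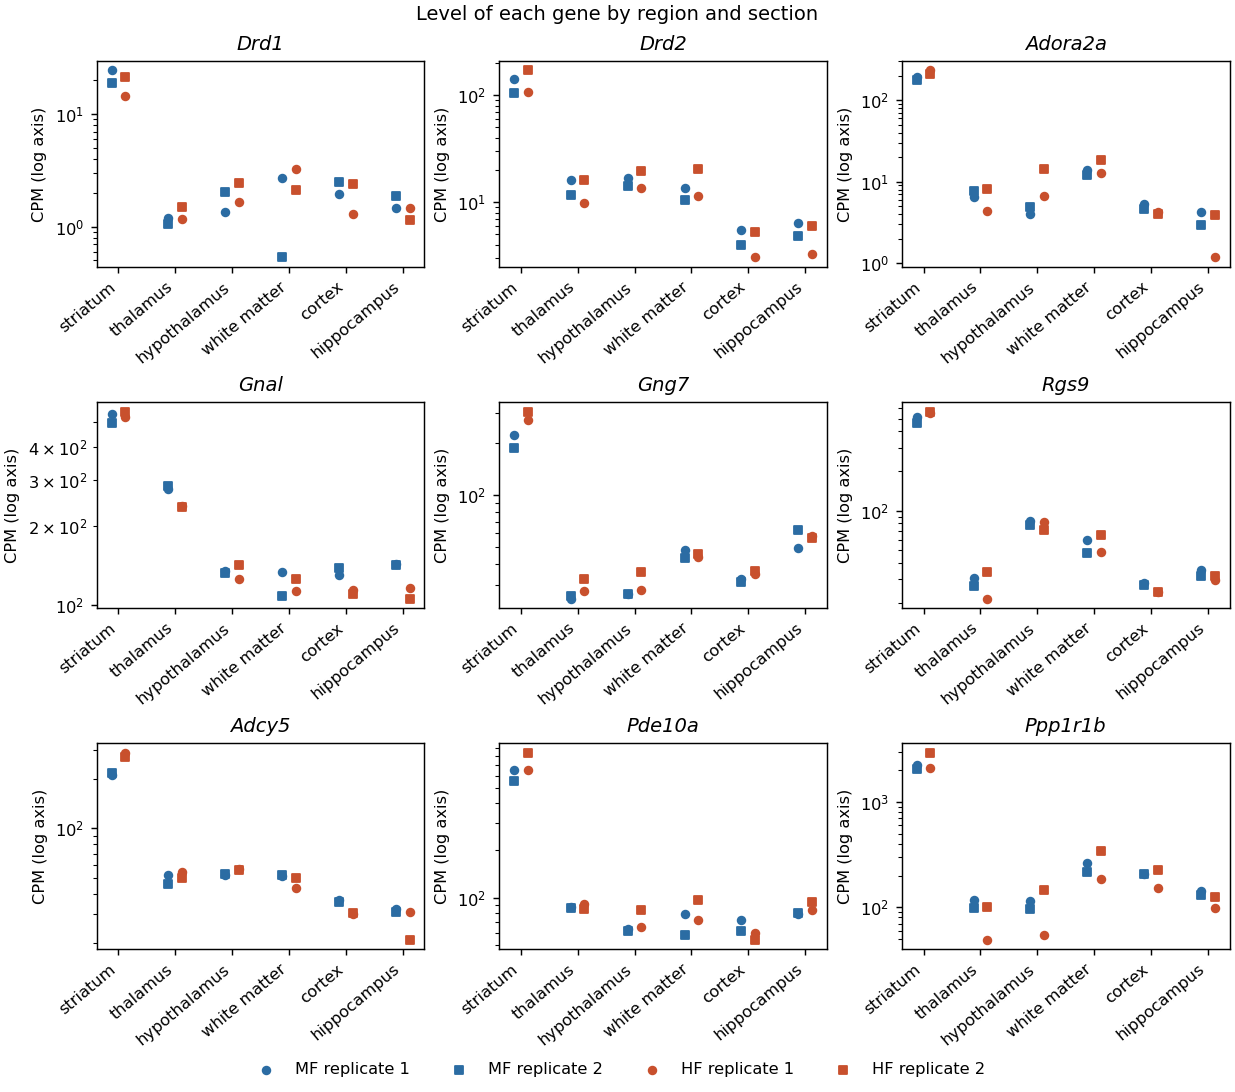
Level of each gene in CPM (log axis) in striatum, thalamus, hypothalamus, white matter, cortex and hippocampus, with 1 point per section (blue MF, orange HF, circle replicate 1, square replicate 2). In every panel the 4 striatal points lie above all others, with Gnal in thalamus closest and Adora2a furthest apart.

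The share of a gene's UMIs that fell in striatal spots measures how restricted it was. Striatal spots made up 3.53% to 5.89% of the spots of a section and 2.17% to 4.84% of its UMIs. They held 50.7% ± 3.52 of the Adora2a UMIs (SD, n = 4), with 52.9% and 46.6% for MF and 49.0% and 54.2% for HF. Adora2a was therefore the most restricted of the 9, and its share varied little. The share was 33.1% ± 6.18 for Ppp1r1b, 30.3% ± 8.43 for Drd2, 30.3% ± 7.30 for Rgs9 and 28.5% ± 8.62 for Drd1. It was 23.9% ± 8.65 for Pde10a, 18.8% ± 6.30 for Gng7 and 16.2% ± 5.67 for Adcy5. Gnal was the least restricted at 10.2% ± 3.94. Neighbours in this order from Ppp1r1b to Drd1 lay within the spread between sections.

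The levels fell sharply at the border of the striatal cluster. The cluster was drawn from other genes, without leaving out the striatal markers, so this fall is a description without a test. Over the 291 spots in the outermost row, Adora2a averaged 158 ± 35.5 CPM (SD, n = 4), and over the 304 spots of the first row outside it averaged 34.5 ± 11.5 CPM. Over the 104 spots at 3 spacings inside it averaged 298 ± 40.4 CPM, so that its level also rose inward. Ppp1r1b went from 2699 ± 612 CPM at that depth to 2076 ± 270 CPM in the outermost row and 598 ± 94.3 CPM just outside. Adcy5 was flatter within striatum, at 248 ± 66.1 CPM deep and 240 ± 53.6 CPM at the edge, and then dropped to 78.2 ± 9.63 CPM. Gnal went from 478 ± 24.4 to 193 ± 39.7 CPM across the border.

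**Figure D3:**
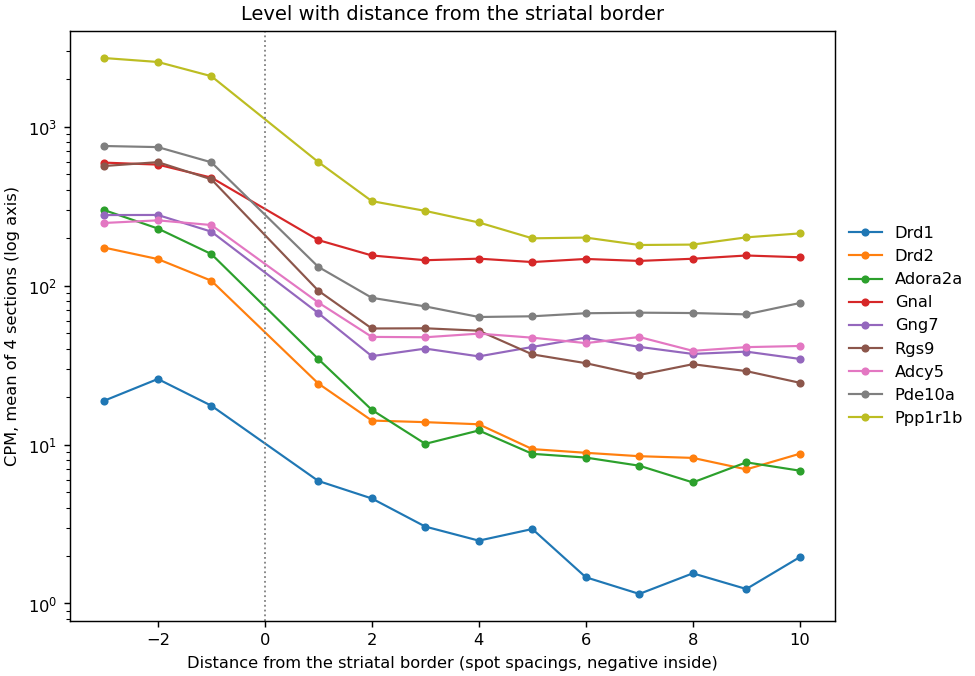
Mean level of each gene over 4 sections in CPM (log axis) by distance from the striatal border in spot spacings, negative inside. All 9 lines drop between the outermost striatal row and the first row outside, for Adora2a from 158 to 34.5 CPM, and level off within a few spacings.

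Drd1 was near the limit of detection. Its UMIs in striatum numbered 79 and 23 for the MF sections and 11 and 44 for the HF sections. With each spot thinned to 5000 UMIs, a Drd1 UMI was seen in 20 of 147, 9 of 116, 7 of 91 and 19 of 194 striatal spots in that order of sections, against 3 of 275, 1 of 238, 1 of 213 and 3 of 257 in hippocampus. The striatal share was the higher in each section, at 7.69% to 13.6% against 0.420% to 1.17%. Without thinning the shares were 9.57% to 38.8% in striatum and 1.55% to 4.73% in hippocampus. Ppp1r1b, by contrast, was seen in at least 99.3% of thinned striatal spots, against 37.1% to 58.2% in hippocampus, and without thinning in at least 99.1%, against 67.5% to 96.7%. Changes in Drd1 smaller than its counting error cannot be detected at this depth.

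Over 36 region sums (9 regions in 4 sections), the features whose log2(CPM + 1) followed each gene most closely often came from the 9 themselves or from the striatal markers. These sums share sections, depth and the striatal peak, so the coefficients are descriptions. Rgs9 and Adcy5 lay closest to Penk, which codes for the enkephalin precursor, with Pearson's r of 0.936 in both cases. Adora2a was closest to Adcy5 (r = 0.924) and then to Penk (0.918). Drd1 was closest to Pde10a (0.892), and Drd2 to Adcy5 (0.899). Pde10a lay nearest Pde1b (0.925), another phosphodiesterase, and Gng7 and Gnal nearest Actn2 (0.909) and Rasd2 (0.909). Ppp1r1b followed Sh3rf2 best (0.910).

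Between the diets, none of the 9 genes passed the test in striatum. UMIs were summed over the striatal spots of each section, in which fewer cells of a type and less RNA per cell cannot be told apart, and the sums were compared with the quasi-likelihood test of edgeR. Calls required an adjusted p (Benjamini-Hochberg) below 0.05 together with a change of 1.2-fold or more. Of 11126 features tested, 5 passed (0.0449%), and 0 of the 9 genes did. At an unadjusted p under 0.05 there were 4 of the 9 and 751 of all features (6.75%). DESeq2 called 2 features (Mt2 and Prkcd) and 0 of the 9, of which 3 had an unadjusted p under 0.05. The 5 called by edgeR were Egr1, Pmch, Hcrt, Mt2 and Prkcd. Egr1, an immediate early gene, had a log2 fold change (HF over MF) of 2.03, and Mt2 one of -0.84. The hypothalamic neuropeptide genes Pmch and Hcrt stood at -3.83 and -5.40, and Prkcd, which also led a thalamic cluster, at -1.21. Hypothalamic spots next to striatal ones numbered 7 and 12 in MF and 6 and 31 in HF. The part of neighbouring tissue in these calls was not tested.

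Gng7 came closest to the threshold. It had 223 and 188 CPM in MF and 272 and 306 CPM in HF. The groups did not overlap, and HF was higher by 0.48 on the log2 scale (SE 0.12, edgeR adjusted p = 0.238). Adcy5, the main striatal adenylyl cyclase, had 213 and 217 CPM in MF against 289 and 272 CPM in HF. Here too both HF sections lay above both MF sections, with a log2 fold change of 0.38 (SE 0.12, edgeR adjusted p = 0.436). Pde10a, the phosphodiesterase, had 654 and 553 CPM in MF and 653 and 839 CPM in HF. MF replicate 1 and HF replicate 1 were level for it, and the log2 fold change was 0.31 (SE 0.12, edgeR adjusted p = 0.615).

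Ppp1r1b had 2237 and 2042 CPM in MF and 2108 and 2945 CPM in HF. HF replicate 2 alone was higher, and the log2 fold change was 0.24 (SE 0.12, edgeR adjusted p = 0.738). Rgs9 had 511 and 463 CPM in MF and 557 and 567 CPM in HF, without overlap, for a log2 fold change of 0.20 (SE 0.11, edgeR adjusted p = 0.767). Gnal had 535 and 497 CPM in MF and 522 and 548 CPM in HF. Its groups overlapped and differed by 0.05 (SE 0.11, edgeR adjusted p = 0.967), the smallest difference among the 9.

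Of the receptors, Adora2a had 192 and 178 CPM in MF and 232 and 209 CPM in HF. The groups did not overlap, with a log2 fold change of 0.23 (SE 0.12, edgeR adjusted p = 0.767). It was 0.054 over interior spots, 0.12 with spots thinned to 5000 UMIs, 0.13 with striatum taken by marker score and 0.42 with the coarser clustering. Drd2, the receptor of the indirect pathway, had 141 and 104 CPM in MF and 108 and 171 CPM in HF, and its groups overlapped (log2 fold change 0.21, SE 0.16, edgeR adjusted p = 0.866). Drd1, the receptor of the direct pathway, was the 1 gene of the 9 with a lower fitted level in HF in the full fit. It had 24.6 and 18.8 CPM in MF and 14.5 and 21.4 CPM in HF, with overlap (log2 fold change -0.24, SE 0.27, edgeR adjusted p = 0.924). Its sign was not stable, at 0.094 over interior spots and -0.65 to 0.033 with 1 section left out.

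**Figure D4:**
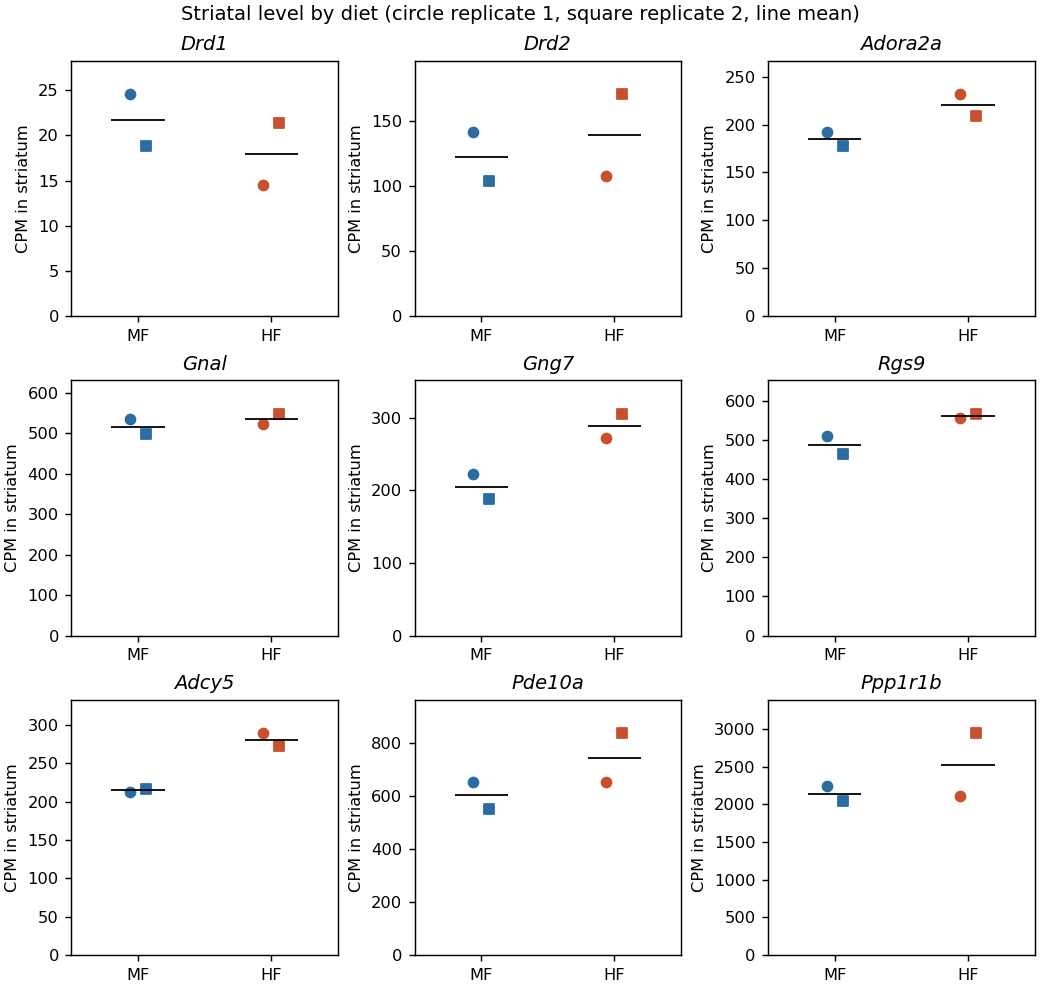
Striatal level of each gene in CPM by maternal diet, with 1 point per section (circle replicate 1, square replicate 2) and a line at the group mean; axes start at 0. Both HF points lie above both MF points for Adora2a, Gng7, Rgs9 and Adcy5, and the groups overlap for the other genes.

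In all, both HF sections lay above both MF sections for 4 of the 9 genes, against 18.1% of all features tested, and below for 0, against 17.7%. The fitted difference was positive for 8 of the 9, with a median log2 fold change of 0.23, while the median over all features was -0.01. The count of positive genes was 6 without HF replicate 2, and 7 without MF replicate 2 or with striatum taken by marker score. It was 9 over interior spots and without MF replicate 1. Other markers moved beside these genes. The 14 oligodendrocyte markers were all lower in HF by fit (median log2 fold change -0.26, 0 called by edgeR or DESeq2, 10 at an unadjusted p under 0.05 in edgeR), with a summed level of 34968 and 32474 CPM in MF and 29245 and 27214 CPM in HF, led by Mbp. Of the 7 astrocyte markers 6 were lower (median -0.17, 0 called by either tool, 1 at an unadjusted p under 0.05), and their sums overlapped, at 2965 and 3187 CPM for MF and 3136 and 2711 CPM for HF, led by Slc1a2. Of 5 markers of excitatory neurons 3 were lower (median -0.15, 0 called by either tool, 1 at an unadjusted p under 0.05). Their sum was 1295 and 1243 CPM for MF and 1179 and 1145 CPM for HF, without overlap, led by Slc17a7. Of 5 vessel markers 4 were lower (median -0.15, 0 called by either tool, 0 at an unadjusted p under 0.05), with sums of 204.5 and 199.8 CPM for MF and 189 and 185 CPM for HF, again without overlap. Of 7 markers of globus pallidus and other GABA neurons, a list that holds Penk, 5 were higher in HF (median 0.23, 0 called by either tool, 3 at an unadjusted p under 0.05). Their summed level was 2981 and 2958 CPM in MF and 3532 and 3415 CPM in HF, without overlap, led by Penk. Spiny projection neurons are GABAergic and Penk is also on the indirect pathway list, so this list does not mark other cells alone. The 2 measured blood markers were lower (median -0.97, 0 called by either tool, 1 at an unadjusted p under 0.05), with a summed level of 1280 and 593 CPM in MF and 878 and 673 CPM in HF, which overlapped. The 5 microglial markers summed to 272 and 258 CPM for MF and 275 and 302 CPM for HF, without overlap (3 higher, median 0.12, 0 called by either tool, 0 at an unadjusted p under 0.05). The 5 cholinergic markers summed to 38.2 and 38.5 CPM for MF and 74.99 and 36.9 CPM for HF, so that HF replicate 1 stood apart. The part of these markers in the differences was not tested.

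The balance of the receptors of both pathways was also compared. The log2 ratio of Drd1 to Drd2 UMIs in striatum averaged -2.48 in MF and -2.91 in HF, a difference of -0.43. An exact two-sided permutation test over the 4 sections gave p = 0.333, the smallest value that 2 against 2 sections allow. The ratio rests on as few as 11 Drd1 UMIs in a section. Over interior spots, with as few as 6, the difference was -0.046 and the groups overlapped, at -3.15 and -2.20 for MF and -2.45 and -2.99 for HF. With striatum taken by marker score it was -0.37, and the groups overlapped as well.

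Among further genes of each pathway, no list held a called gene in striatum, by edgeR or DESeq2. At an unadjusted p under 0.05 (edgeR) there were 0 direct and 1 indirect pathway gene. The 8 direct pathway genes, among them Drd1, Tac1 (substance P precursor) and Pdyn (dynorphin precursor), were positive in 6 cases, and their median log2 fold change was 0.01. Tac1 had 274 and 353 CPM in MF and 405 and 245 CPM in HF, so that the HF sections lay on both sides of MF. All 8 indirect pathway genes, with Drd2 and Adora2a among them, were positive, with a median of 0.20. Penk, the most abundant of them, had 1335 and 1317 CPM in MF and 1395 and 1535 CPM in HF, without overlap (log2 fold change 0.14, edgeR adjusted p = 0.855). The difference between the pathways was not tested.

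In the signalling lists, too, 0 genes were called by either tool, while 2 G protein and RGS genes, 3 cyclases and phosphodiesterases and 6 genes of protein kinase A and the phosphatases had an unadjusted p under 0.05 (edgeR). Of 18 G protein and RGS genes 10 were positive (median 0.05), with Gnas and Gnb2 the most abundant, and of 14 tested adenylyl cyclases and phosphodiesterases 10 (median 0.08), with Pde1b and Pde2a the most abundant. Of 17 genes of protein kinase A and the phosphatases 15 were positive (median 0.15), led in abundance by the calcineurin subunit Ppp3ca and by Arpp21, a striatal substrate of protein kinase A. Over all features 49.0% were positive. Of 10 genes for other dopamine receptors and dopamine handling only 5 passed the filter on low counts, and Maoa, which breaks dopamine down, had 25.1 ± 3.88 CPM (SD, n = 4). Slc6a3, the dopamine transporter of midbrain neurons, was near 0 at 0.484 ± 0.627 CPM.

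Leaving out 1 section changed the count of calls among the 9 genes. Without HF replicate 1, the shallowest section, 160 of 11881 features were called in striatum, among them Gng7 (log2 fold change 0.54), Pde10a (0.46) and Ppp1r1b (0.46). Without HF replicate 2, 39 of 10943 features and 0 of the 9 genes were called, Ppp1r1b stood at -0.020 and Pde10a at 0.10, and the median over the 9 was 0.10 in place of 0.23. In the full fit 4 of the 9 had an unadjusted p under 0.05. Without MF replicate 2 the median log2 fold change over the 9 was 0.17, and without HF replicate 1 it was 0.34. With striatum taken by marker score 0 of the 9 (median 0.13) and 270 of 11369 features had an unadjusted p under 0.05. Over interior spots 3 of the 9 (0.14) and 495 of 9693 features did, and with the coarser clustering 6 (0.37) and 783 of 11395. Over all alternatives tried, the adjusted p ranged from 5.6e-04 to 0.99996 for Gng7 and Pde10a and from 4.3e-06 to 0.99996 for Ppp1r1b. Where a section was left out, the lone section of its diet is assumed to vary like those of the other diet.

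Over the whole section 0 of 14971 features were called by edgeR (0.0%), and 0 of the 9 genes, with 1020 features and 0 of the 9 at an unadjusted p under 0.05. DESeq2 called 22 features and 0 of the 9. Adcy5 was the 1 gene with both HF sections above both MF sections (21.8% of features), at 50.4 and 48.2 CPM in MF and 51.6 and 53.8 CPM in HF. Gnal was the 1 gene with both below (17.9% of features), at 185 and 182 CPM in MF and 164 and 169 CPM in HF. Ppp1r1b differed more within a diet than between diets, with 252 and 207 CPM in MF and 152 and 339 CPM in HF. HF replicate 1 and HF replicate 2 lay at opposite ends of that range, and they also held the smallest and the largest share of UMIs in striatum (2.17% and 4.84%). Leaving out either HF section raised the calls over all features as well. Without HF replicate 1, 1166 of 15179 features were called, with 5 of the 9 as higher in HF, namely Adora2a (0.63), Ppp1r1b (0.56), Drd2 (0.52), Gng7 (0.43) and Pde10a (0.33). Without HF replicate 2, 840 of 15130 features were called, with Ppp1r1b as lower (-0.62).

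In the other regions, 0 of the 9 genes were called between the diets in cortex, where 0.159% of features were, in hippocampus (0.153%), in thalamus (0.0%), in hypothalamus (0.0%) and in white matter (0.0396%), by edgeR. Of the 9, 8 passed the filter on low counts in hippocampus. DESeq2 called 0 of them in each of these regions. In thalamus 748 features had an unadjusted p under 0.05 and DESeq2 called 5, and in hypothalamus 939 and 6. At an unadjusted p under 0.05 there were 3 of the genes in cortex, 2 in hippocampus, 1 in thalamus, 1 in hypothalamus and 0 in white matter. The share over all features was 8.16%, 8.10%, 5.56%, 6.96% and 4.84% in the same order. In cortex both HF sections lay below both MF sections for 5 of the 9, namely Adora2a, Rgs9, Pde10a, Adcy5 and Gnal (20.9% of features), and above for Gng7 (16.3%). In hippocampus they lay below for Ppp1r1b and Gnal (20.2%) and above for Pde10a (17.6%). In thalamus they lay below for Gnal (16.4%) and above for Gng7 (20.1%). In hypothalamus they lay above for Adora2a, Pde10a, Adcy5 and Gng7 (21.8%) and below for 0 (16.7%). In white matter they lay below for Adcy5 (15.6%) and above for 0 (17.8%). Gnal had 130.5 and 138 CPM in cortex in MF against 114 and 111 CPM in HF, and 279 and 285 CPM in thalamus against 239 and 238 CPM. Its log2 fold changes there were -0.24 (edgeR adjusted p = 0.476) and -0.25 (0.877). Adora2a in hypothalamus had 3.97 and 4.83 CPM in MF and 6.65 and 14.2 CPM in HF (log2 fold change 1.26, edgeR adjusted p = 0.718). Its level there is a small part of that in striatum, and HF replicate 2 had 31 hypothalamic spots next to striatal ones, against 7, 12 and 6 in the others. The part of this border in the value was not tested. Without HF replicate 1, Pde10a was called in cortex (-0.30), Gnal in hippocampus (-0.41), Adora2a (1.71), Ppp1r1b (0.44) and Pde10a (0.42) in hypothalamus and Ppp1r1b in white matter (0.50). In the same fits 819 of 13564 features were called in cortex, 522 of 12723 in hippocampus, 944 of 13737 in hypothalamus and 84 of 12831 in white matter.

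Ppp1r1b outside striatum was lowest in HF replicate 1 in each of these 5 regions. In thalamus it had 117 and 98.1 CPM in MF, 49.3 CPM in HF replicate 1 and 101 CPM in HF replicate 2. In hypothalamus the values were 115, 96.7, 54.9 and 145 CPM in the same order. In striatum HF replicate 1 lay between the MF sections. HF replicate 1 was also the shallowest section, and the part of depth was not tested. Without HF replicate 2, Ppp1r1b was called as lower in HF in cortex (-0.45), thalamus (-1.15) and hypothalamus (-0.98), and Rgs9 in thalamus (-0.45). In these fits 158 of 13199 features were called in cortex, 1094 of 13636 in thalamus and 637 of 13689 in hypothalamus.

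The diet effect in striatum was then set against the mean effect in cortex, hippocampus, thalamus and hypothalamus in 1 edgeR fit, with section as a block. No feature of 14083 was called (0.0%), and 0 of the 9 genes, whereas 699 features and 7 of the 9 had an unadjusted p under 0.05. The difference was positive for 8 of the 9, with a median of 0.28 on the log2 scale against -0.003 over all features. Lower values elsewhere enter this difference: the fitted diet effect was positive for 1 of the 9 in cortex (median -0.21), 2 of 8 in hippocampus (-0.28), 4 of 9 in thalamus (-0.07) and 6 of 9 in hypothalamus (0.09). It was 0.52 for Ppp1r1b (SE 0.14, edgeR adjusted p = 0.741), 0.48 for Adcy5 (SE 0.11, 0.526) and 0.26 for Gnal (SE 0.08, 0.944). Drd1 was the exception, at -0.37 (SE 0.33, 0.978). That exception was lost over interior spots, where all 9 were positive (median 0.32), and without MF replicate 1, where all 9 were positive as well. Without the filter on low counts 19 of 18770 features were called, with Ppp1r1b (0.52) and Adcy5 (0.48) among them. Both were also among the 19 of 14309 called without HF replicate 1 (0.36 and 0.52), and Ppp1r1b alone of the 9 was among the 13 of 14385 called without HF replicate 2 (0.73). Leaving out either MF section gave 0 calls by edgeR. Without MF replicate 2, 497 features and 2 of the 9 had an unadjusted p under 0.05, and the median over the 9 was 0.20. Without MF replicate 1, 577 features and 5 of the 9 did, and the median was 0.34. With striatum taken by marker score 665 of 14018 features and 0 of the 9 had an unadjusted p under 0.05, with a median of 0.18 over the 9. With the coarser clustering 720 of 13903 features and 7 of the 9 did, with a median of 0.39.

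Within striatum, 4 of the 9 genes were called as higher dorsally, namely Pde10a, Rgs9, Gng7 and Adcy5. The striatal spots of each section were split at their median position along the line from the thalamic to the hypothalamic centroid. This split uses no count of these genes. Dorsal and ventral name the parts of this band, in sections that also hold thalamus and hypothalamus, and not anatomical divisions of striatum. The sums of both parts were compared with edgeR, with section as a block. Of 9596 features tested 531 were called (5.53%), of which 323 were higher dorsally (3.37%) and 208 ventrally (2.17%). The 4 called genes of 9 were all on the dorsal side. Without MF replicate 1, 296 features were called, and 3 of the 9.

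Pde10a had 773 CPM dorsally and 505 CPM ventrally in MF replicate 1, and 670 and 425 CPM in the other MF section. HF replicate 1 had 829 and 425 CPM, and the other HF section 913 and 754 CPM. The dorsal part was the higher in all 4 sections, with a log2 ratio (ventral over dorsal) of -0.60 (SE 0.07, edgeR adjusted p = 5.4e-12). Rgs9 had 589 and 413, 519 and 401, 696 and 376, and 657 and 463 CPM in the same order. Its dorsal parts all lay above its ventral parts, and the log2 ratio was -0.57 (SE 0.07, edgeR adjusted p = 8.3e-11).

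Gng7 had 253 and 186, 228 and 144, 299 and 238, and 320 and 289 CPM in the dorsal and ventral parts, in the same order of sections. It was higher dorsally in each, by the largest factor in MF replicate 2 (log2 ratio -0.39, SE 0.08, edgeR adjusted p = 3.2e-04). Adcy5 had 235 and 185, 244 and 188, 320 and 250, and 279 and 264 CPM, with little difference in HF replicate 2 (log2 ratio -0.30, SE 0.08, edgeR adjusted p = 0.00943). Its call was the least stable of the 4, and was lost with spots thinned to 5000 UMIs (-0.10), with interior spots (-0.19), with striatum taken by marker score (-0.27), with DESeq2 (-0.31) and without MF replicate 1 (-0.26) or MF replicate 2 (-0.28). DESeq2 called Pde10a and Rgs9 only, and the call of Gng7 was lost there (-0.41).

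Ppp1r1b was higher dorsally in all 4 sections, at 2376 and 2064, 2161 and 1913, 2245 and 1931, and 3060 and 2813 CPM. The log2 ratio of -0.21 passed the adjusted p (SE 0.05, 0.00622, edgeR) but not the 1.2-fold minimum. Gnal was level, with a log2 ratio of 0.04 (SE 0.06, edgeR adjusted p = 0.861), and was higher ventrally in 3 of 4 sections. Of the G protein subunit genes Gng7 was called and Gnal was not, and the difference between them was not tested.

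None of the receptor genes was called. Adora2a was higher ventrally in 4 of 4 sections, at 180 and 207, 153 and 205, 192 and 283, and 196 and 224 CPM dorsally and ventrally. Its log2 ratio of 0.26 missed the threshold (SE 0.09, edgeR adjusted p = 0.0555), and passed it with library size alone in place of TMM (0.29). With striatum taken by marker score it was 0.077, and over all alternatives the edgeR or DESeq2 adjusted p ran from 0.0218 to 0.854. Drd2, which the same neurons carry, was higher dorsally in 4 of 4 sections, at 145 and 137, 118 and 88.8, 121 and 90.4, and 175 and 165 CPM. Its log2 ratio was -0.19 (SE 0.10, edgeR adjusted p = 0.341). The log2 ratio of Drd2 to Adora2a UMIs was lower ventrally in each section, at -0.31 and -0.59, -0.37 and -1.20, -0.65 and -1.63, and -0.16 and -0.44. With spots thinned to 5000 UMIs HF replicate 2 went the other way (-0.36 dorsally and -0.26 ventrally), and over interior spots HF replicate 1 was nearly level (-1.36 and -1.38). Drd1 was higher dorsally in 3 of 4 sections, but the ventral parts held as few as 3 UMIs (log2 ratio -0.57, SE 0.26, edgeR adjusted p = 0.228). With 1 section left out its log2 ratio ran from -0.89 to -0.23.

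**Figure D5:**
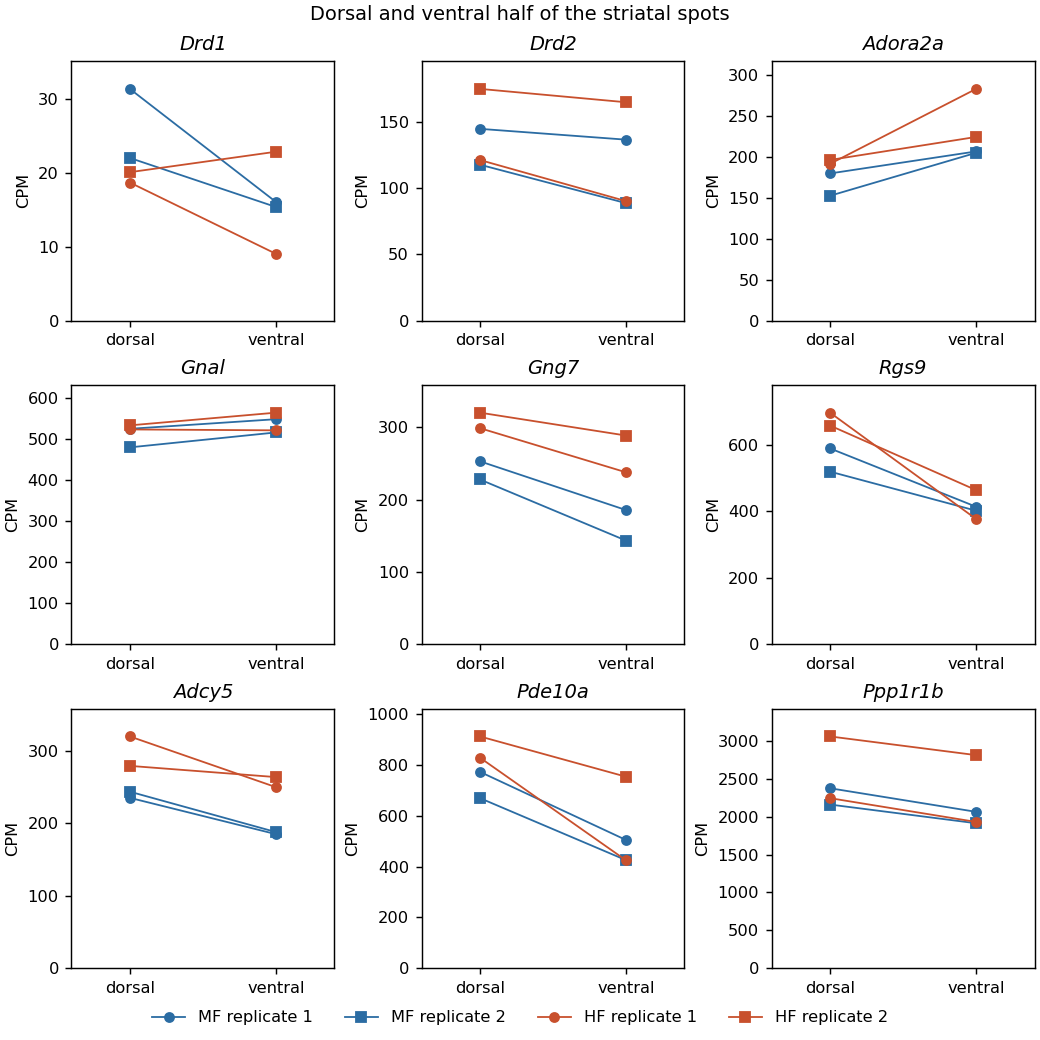
Level of each gene in CPM in the dorsal and ventral part of the striatal spots, with 1 line per section (blue MF, orange HF, circle replicate 1, square replicate 2). The lines for Pde10a, Rgs9, Gng7, Adcy5, Ppp1r1b and Drd2 fall toward the ventral part in all 4 sections, and those for Adora2a rise.

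Other pathway genes moved in both directions. Of the direct pathway list 7 genes were tested: Tac1 was called as higher ventrally (log2 ratio 0.35, edgeR adjusted p = 0.00139), and Pdyn (-0.52, 0.0136) and Chrm4 (-0.77, 0.0256), a muscarinic receptor of these neurons, as higher dorsally. Of the 8 indirect pathway genes Penk (0.29, 8.2e-05) and the kainate receptor subunit Grik3 (0.45, 0.0306) were called ventrally, and Gpr6 (-0.74, 0.00185), an orphan receptor, dorsally. Neither pathway thus lay to a single side. In HF replicate 2 Tac1 and Pdyn ran the other way, with 250 and 240 CPM of Tac1 and 60.3 and 76.9 CPM of Pdyn dorsally and ventrally.

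Of the signalling lists, Rgs4 was called dorsally (-0.29, 4.3e-04) as 1 of 18 G protein and RGS genes, and Pde1a ventrally (0.73, 4.3e-05) as 1 of 14 cyclases and phosphodiesterases. Arpp21 (-0.29, 1.6e-04) and Ppp1ca (-0.28, 0.00164), the catalytic subunit that Ppp1r1b inhibits, were called dorsally among 17 genes of protein kinase A and the phosphatases (edgeR adjusted p throughout). Of the 3 tested genes for other dopamine receptors and dopamine handling 0 were called, with 1 at an unadjusted p under 0.05. Pde1a and Pde10a, both phosphodiesterases, were thus called on opposite sides.

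The dorsal and ventral parts of the striatal spots also differed in what else they held. All 14 oligodendrocyte markers were called higher dorsally (median log2 ratio -0.88), with a summed level of 42191, 40254, 38693 and 36656 CPM dorsally and 25961, 24021, 17063 and 16468 CPM ventrally, led by Mbp. Of the 7 astrocyte markers 5 were lower ventrally by fit and 2 higher (median -0.12), and Gfap alone was called, dorsally (-0.41). Their summed level was 2930, 3312, 2934 and 2639 CPM dorsally and 3009, 3051, 3397 and 2792 CPM ventrally. That sum was thus higher ventrally in all sections but MF replicate 2. Ttr, the leading gene of choroid plexus, was the feature with the smallest p and lay dorsally (-1.97). Chat, Lhx8 and Slc18a3, markers of cholinergic neurons, were called ventrally (1.59, 1.49 and 2.26). The summed level of that list was 12.9, 6.29, 70.1 and 21.9 CPM dorsally and 69.8, 73.5, 81.3 and 54.0 CPM ventrally, so that HF replicate 1 stood apart dorsally. Also called ventrally were the microglial gene C1qa (0.49) and Gad1 (0.43), from the list of GABA neurons, which spiny projection neurons also are. The median UMI count per spot was higher dorsally in each section, from 6965 to 23483 against 5612 to 19254. The part of these differences in the values of the 9 genes was not tested. Over interior spots alone, Pde10a, Rgs9 and Gng7 kept their calls, with 76 features called in all.

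Space Ranger's Moran's I, a score of how strongly a gene's level clusters in space over the whole section, is a readout that uses no regions. Ppp1r1b scored 0.590 and 0.473 for MF and 0.463 and 0.646 for HF, within the top 0.494% of features in each. Adora2a scored 0.452, 0.317, 0.373 and 0.469 in the same order, within the top 1.51%. Drd1 scored lowest, at 0.115, 0.0467, 0.0129 and 0.0599. For all 9 genes the scores of MF replicate 1, the deepest section, and HF replicate 2, with the largest striatal cluster, were above those of MF replicate 2 and HF replicate 1, so that the diets overlapped for each gene. The part of depth and of the size of striatum in these scores was not tested.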

How the data were processed

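The authors aligned the reads to mm10 (GRCm38) with Space Ranger 2.0.0, per the submitters' processing notes, and deposited filtered UMI counts per spot. They also deposited Moran's I, a score of spatial clustering. From the counts, spots with at least 500 UMIs and 250 features were kept (13452 of 13470). Spots were clustered jointly (Leiden, resolution 1, leidenalg 0.10.2) on 2000 variable features, leaving out the 9 genes and the related lists, and clusters were named from regional markers. The median spot held 9286 to 23543.5 UMIs, depending on the section.

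UMIs were summed by section and region, expressed as CPM, and tested with edgeR 4.0.16 (filterByExpr, TMM, quasi-likelihood test, R 4.3.3) across all features. The test was checked on simulated data. For HF against MF in striatum it recovered 30.5% of 1.5-fold and 84.5% of 2-fold changes, so smaller changes would often be missed. The changed features were drawn from those above a minimum mean count, so recovery at lower counts was not measured. Calls required a Benjamini-Hochberg adjusted p below 0.05 together with a change of 1.2-fold or more. Alternatives left out the filter on low counts or the TMM factors, or used spots thinned to 5000 UMIs, interior spots only, a coarser clustering (resolution 0.5), striatum as the 150 spots of each section with the highest marker score, DESeq2 1.42.0, a replicate block, or 3 of the 4 sections. DESeq2 was not run on the comparison of striatum with other regions. Named were the 9 genes, the called or else the 2 most abundant members of each related list, the features called between the diets in striatum, and the 3 features most like each gene. Marker genes of other cell types were named beside the comparisons after their values were seen. The genes and lists were chosen with earlier results of these data known. Some items that these rules would name are not reported here.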

Additional observations from a re-analysis of the deposited data

How the results depend on the processing

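Of 579 recomputed values, 455 kept their direction and their side of the threshold or moved little. With no filter on low counts, the features called between the diets numbered 5 over the whole section, 26 in striatum, 133 in cortex, 146 in hippocampus, 19 in thalamus, 155 in hypothalamus (1 of the 9 genes) and 19 in white matter, and 19 (2 of the 9) for striatum against other regions. With spots thinned to 5000 UMIs they numbered 1 over the whole section, 13 in cortex, 1 in thalamus and 207 between ventral and dorsal striatum, where Gnal stood at -0.015. With interior spots 76 features were called between ventral and dorsal striatum, and Drd1 between the diets stood at 0.094. With striatum taken by marker score the counts were 0 between the diets, where Gnal stood at -0.010, 1 against other regions and 201 between ventral and dorsal striatum. The coarser clustering gave 0 in hippocampus and 3 in white matter. DESeq2 called 22 over the whole section, 2 in striatum, 5 in thalamus, 6 in hypothalamus, 2 in white matter and 126 (2 of the 9) between ventral and dorsal striatum. The cause of these changes was not tested.

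Sections with the same replicate number did not deviate together (r of their deviations -0.07 in striatum and -0.16 over the whole section). These coefficients rest on 1 difference within each diet, so they cannot decide whether the numbers pair the sections. With the replicate number as a block, 8 features were called in striatum, 0 over the whole section, 88 in cortex, 39 in hippocampus and 9 in thalamus, 0 of the 9 genes in each, and Ppp1r1b over the whole section stood at -0.016. With the numbers crossed, an alternative added after seeing the data, 33 (1 of the 9) were called in striatum, 11 over the whole section, 102 in hippocampus, 119 (1 of the 9) in thalamus, 16 in hypothalamus and 16 in white matter, and Ppp1r1b over the whole section stood at -0.014.

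Leaving out each section in turn gave 0 to 1166 features and 0 to 5 of the 9 genes over the whole section, 5 to 160 and 0 to 3 in striatum, 14 to 819 and 0 to 1 in cortex, 2 to 522 and 0 to 1 in hippocampus, 3 to 1094 and 0 to 2 in thalamus, 0 to 944 and 0 to 3 in hypothalamus, 7 to 84 and 0 to 1 in white matter, 0 to 19 and 0 to 2 for striatum against other regions, and 296 to 448 and 3 to 4 between ventral and dorsal striatum. The log2 ratio of Drd1 to Drd2 differed between the diets by -0.50 to -0.36, and by -0.046 over interior spots. Over the whole section the log2 fold change ranged from -0.37 to 0.33 for Drd1, -0.41 to 0.52 for Drd2, -0.62 to 0.56 for Ppp1r1b, -0.26 to 0.63 for Adora2a, -0.22 to 0.27 for Rgs9, -0.078 to 0.33 for Pde10a and -0.025 to 0.43 for Gng7. In striatum it ranged from -0.65 to 0.033 for Drd1, -0.25 to 0.49 for Drd2, -0.020 to 0.46 for Ppp1r1b, 0.17 to 0.31 for Adora2a, 0.13 to 0.29 for Rgs9, 0.10 to 0.46 for Pde10a and -0.0065 to 0.12 for Gnal. Drd1 rested on 11 to 79 UMIs a section in striatum.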
